A study of Homo sapiens with 6 samples.

Results

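The 10 genes described here were chosen by symbol: 8 receptor tyrosine kinases (EGFR, ERBB2, ERBB3, MET, AXL, FGFR1, IGF1R and INSR) and the 2 insulin receptor substrates IRS1 and IRS2. All 10 were found among the 16070 genes of the deposited table. The RNA came from NCI-H1299, a cell line long established from a human lung carcinoma of the non-small cell type, kept in medium with 10% serum. The 6p group is 3 samples exposed for 48 h to 25 µM 6p, and the control group is 3 samples given the vehicle, 0.1% DMSO, although one label field calls them untreated. The series title gives 6p as a derivative of platensimycin, a bacterial natural product that blocks fatty acid synthesis in bacteria. All 6 libraries come from this 1 line, and the labels call the 3 samples of each group independent without saying whether they were grown separately, so p-values measure only the spread between these samples.

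Receptor tyrosine kinases span the plasma membrane, bind a growth factor outside the cell and phosphorylate tyrosines on themselves and on docking proteins inside it. EGFR, ERBB2 and ERBB3 are members of 1 family and signal as pairs. ERBB3 has little kinase activity of its own and ERBB2 has no known soluble ligand, so each depends on a partner. MET binds hepatocyte growth factor, AXL binds GAS6, and FGFR1 binds fibroblast growth factors. INSR and IGF1R bind insulin and the insulin-like growth factors and phosphorylate IRS1 and IRS2, which recruit PI3-kinase and so switch on AKT and mTOR. In lung carcinoma, EGFR, MET and AXL are known as drug targets and as routes by which tumor cells bypass inhibitors of one another.

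In 6p-treated cells EGFR, IRS1 and AXL fell, while ERBB2, ERBB3, FGFR1, MET and INSR did not pass the test and IGF1R lay just outside it. EGFR fell by 48.6% in mean level and IRS1 by 44.3%, and AXL, the most abundant of the 10, by 19.3%. Values are FPKM, fragments scaled to gene length and library size. This is meant to put genes of different length on 1 scale, but these libraries differed in how values run with length. IRS2 averaged under 0.5 FPKM and was left untested. Of the other 9, tested with limma on log2(FPKM + 1), 3 were lower and 0 higher at adjusted p under 0.05, and 0 were higher also at an unadjusted p under 0.05 or with limma voom. Of all 11745 genes tested, 25.1% were lower and 21.3% higher, 46.5% in all. In RNA from bulk cells, fewer cells of a type and less RNA per cell cannot be told apart. The 33.3% of tested members called lower is thus close to the share among all genes, and the median log2 fold change was -0.26 over the 9 members against -0.04 over all genes tested. After rescaling to TPM the share of higher genes among all called genes was 27.7% instead of 45.9%.

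Control replicate 3 and 6p replicate 1 stood apart from the rest of their groups in a way that follows gene length, and all 10 members are longer than the median tested gene of 3904 nt, at 4875 to 13403 nt. In control replicate 3 long genes read lower than in the other controls (Spearman's rho between length and the difference, over genes, of -0.68), and in 6p replicate 1 lower than in the other 6p libraries (-0.52). Control replicate 3 was the lowest control for 10 of the 10 members, and 6p replicate 1 the lowest 6p library for 9. Fold changes between the groups also ran with length, with medians of 0.25 for the shortest 10% of genes and -0.22 for the longest 10%, which starts at 9086 nt and holds EGFR, IGF1R, INSR and IRS1. The members' fold changes and the counts over lists are therefore given as deposited, with each library's trend on length removed, and without these 2 libraries. The last way leaves 2 libraries per group. Taking out the libraries that stood apart also narrows the spread that SE and p-values measure. Its smaller p-values are thus not stronger evidence than the others, and 65.9% of all genes were called there, against 46.5% as deposited. All 6 libraries held 16775655 to 19957335 fragments, with those of each member recovered from the FPKM values. KRT8, KRT18 and VIM, known to be expressed in this line, ranged from 281 to 3060 FPKM, while the markers measured for leukocytes (2 of 3), endothelium (3 of 3) and fibroblasts (3 of 4) summed to at most 0.353 FPKM per class in any library. EPCAM and NKX2-1, known markers of epithelium and of lung adenocarcinoma, reached at most 0.539 and 0.687 FPKM. The other lineage markers CDH1, SFTPC, CD3E and LUM were not analysed here.

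The promoters of the 3 genes that fell are shown because they are the members called lower by limma on the values as deposited. Each is the 250 bases before the gene's start in RefSeq on GRCh38.p14, read 5′ to 3′ on the gene's own strand, with capitals marking GC boxes (GGGCGG or its reverse CCGCCC).
EGFR, chr7:55018767-55019016, plus strand: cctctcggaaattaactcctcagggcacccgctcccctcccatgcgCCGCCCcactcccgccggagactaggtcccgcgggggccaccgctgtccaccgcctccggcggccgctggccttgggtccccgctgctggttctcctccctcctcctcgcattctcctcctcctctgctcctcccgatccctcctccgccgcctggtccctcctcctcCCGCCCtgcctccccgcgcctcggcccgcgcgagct
AXL, chr19:41218973-41219222, plus strand: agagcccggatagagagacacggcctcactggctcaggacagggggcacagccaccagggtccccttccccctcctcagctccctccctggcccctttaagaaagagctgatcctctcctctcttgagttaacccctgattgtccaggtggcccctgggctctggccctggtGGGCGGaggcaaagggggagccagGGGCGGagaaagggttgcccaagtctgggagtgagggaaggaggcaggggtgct
IRS1, chr2:226799821-226800070, minus strand: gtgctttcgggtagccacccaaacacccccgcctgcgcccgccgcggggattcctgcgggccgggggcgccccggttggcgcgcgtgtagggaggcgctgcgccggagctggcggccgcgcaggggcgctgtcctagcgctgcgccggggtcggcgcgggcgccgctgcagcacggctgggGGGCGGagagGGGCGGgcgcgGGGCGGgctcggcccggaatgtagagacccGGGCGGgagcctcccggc
EGFR and AXL each held 2 GC boxes in this window and IRS1 held 4. GC content was 73.6% for EGFR, 64.4% for AXL and 80.8% for IRS1, against a median of 65.2% over the promoters of 9733 tested genes. The GC box was common: 69.1% of those promoters and 7 of the 8 members with an entry had at least 1, and of the others INSR had 4, IRS2 had 5, and IGF1R and MET had 2 each. A TATA box (TATAAA), an E box (CACGTG), a FoxO site (GTAAACA) and an amino acid response core (TGATGNAA), searched on both strands, matched none of the 8, against 4.91%, 9.19%, 1.80% and 1.22% of tested promoters. An AP-1 site (TGANTCA) was matched by 1 member, ERBB2, against 3.44%, and a CCAAT box (CCAAT) by ERBB2 and IRS2, against 35.7%. The GC box was thus the one motif searched that the 3 shared. MET, IGF1R and INSR, not called by limma on the values as deposited, and IRS2, left untested, held it too.

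Since the libraries differed in how values run with length, the order of levels between genes and the ratios below hold for the FPKM as deposited. In the control libraries AXL stood far above the rest, at 349 ± 26.2 FPKM (mean ± SD, n = 3, as for all pairs that follow). FGFR1 followed at 18.7 ± 1.21 and MET at 16.8 ± 3.01, and the ranges of these 2 overlapped. EGFR was next at 9.45 ± 2.40 and ERBB2 at 6.56 ± 0.345, again with overlapping ranges. IGF1R at 2.78 ± 0.507 and IRS1 at 2.33 ± 0.539 overlapped too. INSR at 1.27 ± 0.246, ERBB3 at 0.825 ± 0.150 and IRS2 at 0.101 ± 0.0158 FPKM came last, each below the range of the one before it. AXL made up 86.1 ± 0.784% of the summed FPKM of the 8 receptors in control and 86.0 ± 1.05% in 6p, so the share differed by less than its spread while the sum went from 406 ± 34.0 to 328 ± 33.3 FPKM. In the 6p libraries the order was the same but for 2 exchanges of neighbours, ERBB2 above EGFR and INSR level with IRS1.

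**Figure D1:**
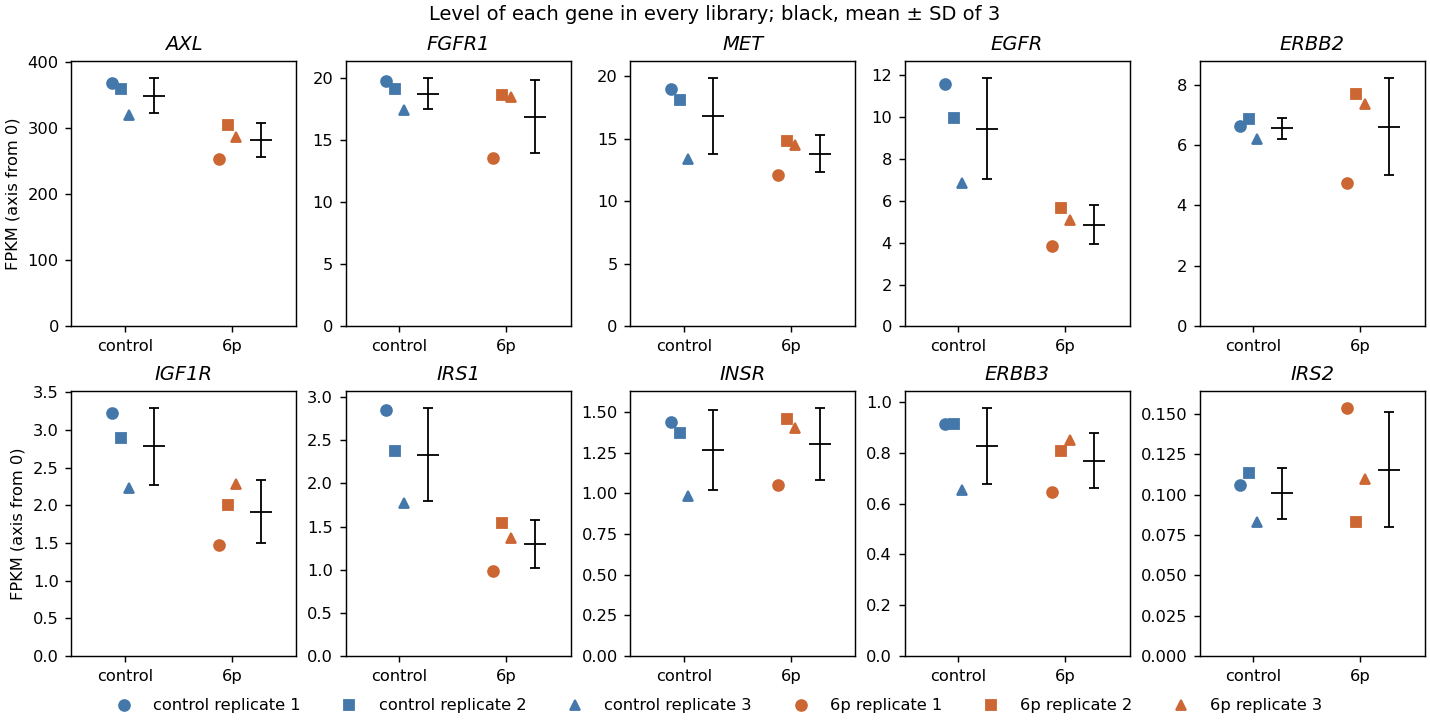
Level in FPKM (vertical axes from 0) of the 10 genes in each of 3 control and 3 6p libraries, ordered by control mean, with the mean and SD in black. The groups do not overlap for AXL, EGFR and IRS1, and control replicate 3 (blue triangle) is the lowest control in every panel.

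Among the ERBB receptors EGFR fell and the other 2 did not pass. EGFR (NCBI gene 1956, chromosome 7, 55019021 to 55211628 in GENCODE release 29 on GRCh38), the receptor for EGF, TGF-alpha and HB-EGF, measured 11.6, 9.94 and 6.84 FPKM in control replicates 1 to 3 and 3.83, 5.65 and 5.10 FPKM in 6p replicates 1 to 3. Every 6p library lay below every control, and the gap was narrowest between control replicate 3 and 6p replicate 2. The means were 9.45 ± 2.40 and 4.86 ± 0.933 FPKM, from 5746 control and 2845 6p fragments in all. The log2 fold change was -0.82 ± 0.18 (± SE here and below) with an adjusted p of 0.00828. With the length trend removed it was -0.59 ± 0.11 (adjusted p = 0.00140), and leaving out both libraries that stood apart gave -0.88 ± 0.08 (adjusted p = 4.24e-07). EGFR was called lower under all 21 alternative settings tried, with adjusted p from 4.24e-07 to 0.0339. Its exons share 186 nt with the antisense gene EGFR-AS1, and the sources used here do not say whether counting used strand. The same holds for 571 and 194 nt that ERBB2 shares with MIEN1 and PGAP3, and for opposite-strand overlaps of 67 to 156 nt in AXL, FGFR1 and IRS2, while ERBB3 shares 31 nt with a gene on its own strand.

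ERBB2 (NCBI gene 2064, chromosome 17, 39687914 to 39730426), the preferred partner of the other ERBB receptors, measured 6.61, 6.87 and 6.19 FPKM in control and 4.76, 7.68 and 7.35 FPKM in 6p. The 6p libraries lay on both sides of the controls, with 6p replicate 1 lowest and the other 2 above every control. Its log2 fold change was -0.01 ± 0.15 (95% interval -0.36 to 0.33, adjusted p = 0.941). Removing the length trend gave 0.12 ± 0.11 (adjusted p = 0.386), and leaving out both libraries that stood apart gave 0.14 ± 0.07 (adjusted p = 0.0848). ERBB3 (NCBI gene 2065, chromosome 12, 56076799 to 56103505) was scarce, at 0.912, 0.911 and 0.652 FPKM in control and 0.645, 0.808 and 0.851 in 6p, and the groups overlapped. Its log2 fold change was -0.04 ± 0.09 (95% interval -0.25 to 0.16, adjusted p = 0.701), on 262 control and 235 6p fragments. It was 0.07 ± 0.07 with the length trend removed (adjusted p = 0.408) and -0.06 ± 0.09 on leaving out both libraries that stood apart (adjusted p = 0.549).

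The order of these partners differed between the groups. The ratio of ERBB2 to EGFR was 0.572, 0.691 and 0.904 in control replicates 1 to 3 and 1.24, 1.36 and 1.44 in 6p replicates 1 to 3. EGFR was thus the more abundant transcript in 3 of 3 controls and ERBB2 in 3 of 3 6p libraries. The mean log2 ratio was 0.92 higher in 6p, with an exact two-sided permutation p of 0.10 (0.10 adjusted over the 3 ratios tested), the smallest that 3 libraries against 3 allow, so this design cannot pass 0.05. The difference was 0.83 with the length trend removed and 1.16 without the 2 libraries that stood apart.

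AXL, the receptor for GAS6, fell by less, and MET and FGFR1 did not pass. AXL (NCBI gene 558, chromosome 19, 41219203 to 41261766) measured 369, 359 and 319 FPKM in control and 254, 305 and 286 FPKM in 6p. The groups did not overlap, but control replicate 3 and 6p replicate 2 lay close together. The means were 349 ± 26.2 and 282 ± 26.0 FPKM, and the log2 fold change was -0.31 ± 0.11 at adjusted p = 0.0422. With the length trend removed it was -0.22 ± 0.05 (adjusted p = 0.00513), and leaving out both libraries that stood apart gave -0.30 ± 0.05 (adjusted p = 0.000109). The call did not hold under 8 of 21 alternatives, with adjusted p of 0.130 and 0.149 when control replicate 1 or 2 was left out and of 0.0906 and 0.0988 when 6p replicate 1 or 3 was. It was also lost with no filter (0.0556), median recentring (0.101), upper-quartile scaling (0.0571) and under 1 other alternative, and over all alternatives adjusted p ranged from 0.000109 to 0.149.

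MET (NCBI gene 4233, chromosome 7, 116672390 to 116798386), the hepatocyte growth factor receptor, measured 19.0, 18.1 and 13.4 FPKM in control and 12.1, 14.8 and 14.5 FPKM in 6p. Control replicate 3 fell among the 6p libraries, while the other 2 controls lay above all of them. The log2 fold change was -0.26 ± 0.14 (95% interval -0.57 to 0.05, adjusted p = 0.149). MET passed as lower without control replicate 3 (-0.40, adjusted p = 0.0139) and on leaving out both libraries that stood apart (-0.32 ± 0.06, adjusted p = 0.000198), whereas with the length trend removed it was -0.09 ± 0.08 (adjusted p = 0.378). FGFR1 (NCBI gene 2260, chromosome 8, 38400215 to 38468834) measured 19.7, 19.1 and 17.4 FPKM in control and 13.5, 18.6 and 18.5 FPKM in 6p. In 6p, replicates 2 and 3 lay within the control range and replicate 1 below it. Its log2 fold change was -0.15 ± 0.12 (95% interval -0.44 to 0.13, adjusted p = 0.333), and it passed under 0 of 21 alternatives, among them 0.02 ± 0.08 with the length trend removed (adjusted p = 0.847) and -0.06 ± 0.05 on leaving out both libraries that stood apart (adjusted p = 0.334).

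The insulin and IGF receptors, which share IRS1 and IRS2 as substrates, are described next. IGF1R (NCBI gene 3480, chromosome 15, 98648539 to 98964530), with 13403 nt the longest member, measured 3.23, 2.89 and 2.23 FPKM in control and 1.47, 1.998 and 2.29 FPKM in 6p. Only control replicate 3 and 6p replicate 3 overlapped. The log2 fold change was -0.38 ± 0.14 at adjusted p = 0.0513, and it passed as lower under 8 of 20 alternatives, among them without the 2 libraries that stood apart (-0.37 ± 0.09, adjusted p = 0.00188) and limma voom on the fragments (-0.55 ± 0.19, adjusted p = 0.0460). With the length trend removed it was -0.13 ± 0.08 (adjusted p = 0.191), over a range of 0.00188 to 0.261.

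INSR (NCBI gene 3643, chromosome 19, 7112255 to 7294034) measured 1.44, 1.37 and 0.985 FPKM in control and 1.05, 1.46 and 1.40 FPKM in 6p, and the 2 groups covered nearly the same range. Its log2 fold change was 0.03 ± 0.11 (95% interval -0.22 to 0.28, adjusted p = 0.857). With the length trend removed INSR passed as higher, at 0.24 ± 0.07 (adjusted p = 0.0162), the 1 member to do so. There 25.5% of all genes were higher and 27.8% lower. That setting also takes out any difference between the groups that runs with length. The 0.24 is thus relative to genes of similar length, whose median as deposited was -0.22. Without the 2 libraries that stood apart the INSR change was 0.01 ± 0.09 (adjusted p = 0.889).

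The ratio of INSR to IGF1R did not overlap between the groups, while each gene alone did. It was 0.446, 0.476 and 0.441 in control and 0.717, 0.730 and 0.614 in 6p, a mean of 0.454 ± 0.0187 against 0.687 ± 0.0635. The 3 controls differed little from one another, control replicate 3 included, and all 3 6p libraries were higher. The mean log2 ratio differed by 0.59 (exact two-sided permutation p = 0.10, the smallest possible), by 0.56 with the length trend removed and by 0.54 without the 2 libraries that stood apart.

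**Figure D2:**
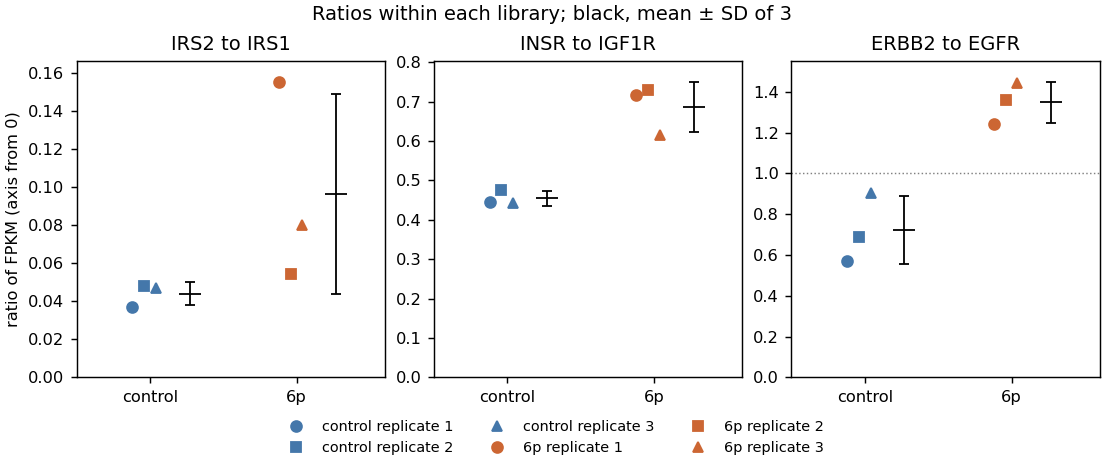
Ratio of FPKM between 2 genes within each library (vertical axes from 0) for IRS2 to IRS1, INSR to IGF1R and ERBB2 to EGFR, with the mean and SD of 3 libraries in black. The 6p libraries lie above the controls in all 3 panels, and the ratio of ERBB2 to EGFR crosses 1, the dotted line.

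Of the 2 substrates, IRS1 fell and IRS2 was nearly absent in both groups. IRS1 (NCBI gene 3667, chromosome 2, 226731317 to 226799759) measured 2.85, 2.38 and 1.77 FPKM in control and 0.990, 1.54 and 1.37 FPKM in 6p. Every 6p library lay below every control, with control replicate 3 and 6p replicate 2 nearest to each other. The means were 2.33 ± 0.539 and 1.30 ± 0.282 FPKM, from 1275 and 683 fragments, and the log2 fold change was -0.53 ± 0.14 at adjusted p = 0.0155. With the length trend removed it was -0.31 ± 0.08 (adjusted p = 0.00971), and leaving out both libraries that stood apart gave -0.56 ± 0.09 (adjusted p = 0.000113). The call was lost without control replicate 1 (-0.42, adjusted p = 0.0525) or control replicate 2 (-0.51, adjusted p = 0.0529), over a range of 0.000113 to 0.0529. Because 1 is added before taking logs, this scale understates the change of so low a gene: limma voom on the fragments gave -0.85 ± 0.22 (adjusted p = 0.0151).

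IRS2 (NCBI gene 8660, chromosome 13, 109752698 to 109786568) had 16, 17 and 13 fragments in control and 25, 12 and 15 in 6p, or 0.106, 0.113 and 0.0830 against 0.154, 0.0833 and 0.110 FPKM. The groups overlapped, and 6p replicate 1 was the highest. It did not reach the mean of 0.5 FPKM needed for the test. The summed fragments of 46 and 52 gave a ratio of 6p to control of 1.17, with an exact binomial 95% interval of 0.769 to 1.77 that covers counting error only. That interval includes no change. It is not a limit of detection for IRS2, since spread between libraries comes on top of counting error. The ratio of IRS2 to IRS1 was 0.0371, 0.0477 and 0.0469 in control and 0.155, 0.0540 and 0.0802 in 6p, so IRS1 remained the more abundant substrate in 6 of 6 libraries. The groups did not overlap (difference in mean log2 ratio 1.01, exact two-sided permutation p = 0.10, the smallest possible), but the size rested on 6p replicate 1: without it the difference was 0.59. With 1 added to each FPKM it was 0.55, with the length trend removed 0.98, and without the 2 libraries that stood apart 0.65.

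**Figure D3:**
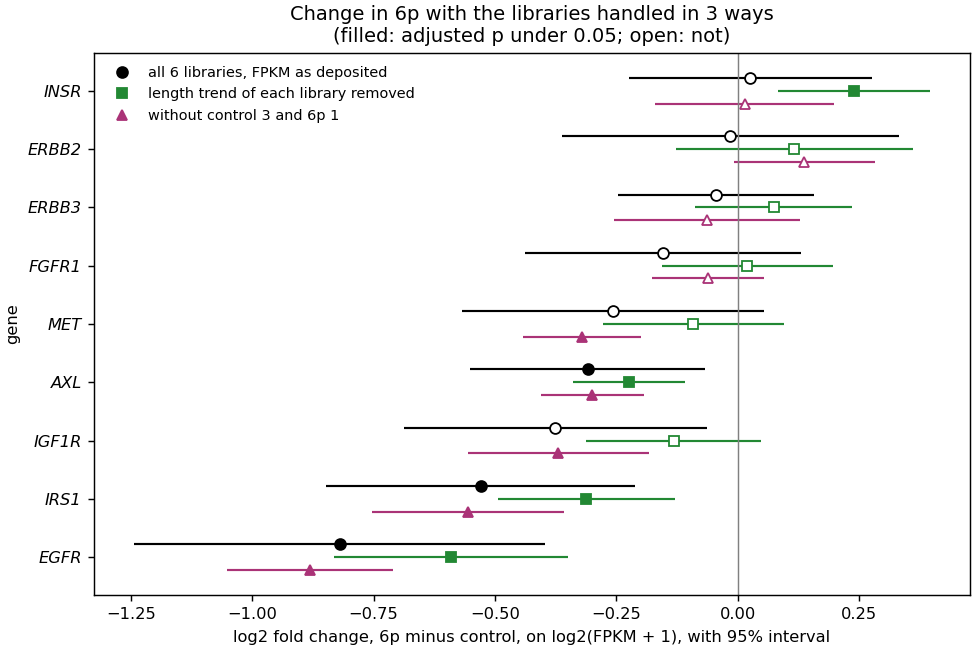
Log2 fold change of 6p against control with 95% interval (horizontal axis) for the 9 tested genes, as deposited (black), with the length trend removed (green) and without control replicate 3 and 6p replicate 1 (purple). EGFR, IRS1 and AXL are called lower in all 3, MET and IGF1R only without the 2 libraries, and INSR is called higher only with the trend removed.

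Over the 9 tested members, 3 were lower and 1 higher with the length trend removed, where 53.3% of all genes were called, and the median log2 fold change was -0.09 against -0.01 over all genes. Without the 2 libraries that stood apart 5 were lower and 0 higher, where 35.6% of all genes were lower and 30.3% higher, 65.9% in all; 0 members were higher there also at an unadjusted p under 0.05. Groups of libraries did not overlap for 3 members (EGFR, AXL and IRS1), against 57.5% of all tested genes. The drop of EGFR and IRS1 was larger than the median of -0.22 for genes in their length class, and that of IGF1R was nearer to it. AXL, at -0.31, also fell by more than the median of -0.10 in its class, as the plot of fold change against length shows.

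**Figure D4:**
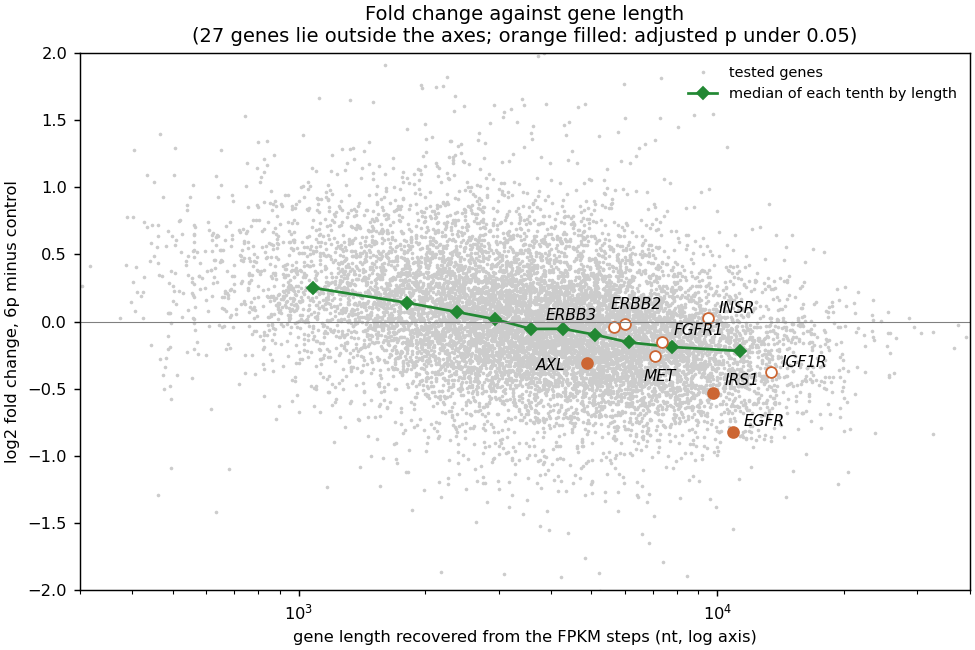
Log2 fold change of 6p against control (vertical axis) by gene length in nt (log axis) for all tested genes (grey), with medians of 10 equal bins of genes by length (green) and the 9 tested members (orange, filled where called). The medians run from 0.25 to -0.22. EGFR, IRS1, AXL, IGF1R and MET lie below those of genes of their length, and the other tested members above.

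The genes whose profile over the 6 libraries was most like that of EGFR, the called member that fell most, were MACF1, TGFBR1 and SYNE2. Likeness was the root-mean-square distance between log2(FPKM + 1) profiles, each less its own mean, and was 0.0276 for MACF1, 0.0285 for TGFBR1 and 0.0349 for SYNE2. MACF1, a large cytoskeletal linker, went from 26.5 ± 5.73 to 14.7 ± 2.54 FPKM and TGFBR1, a TGF-beta receptor, from 2.41 ± 0.742 to 0.939 ± 0.307. SYNE2, a nuclear envelope protein, went from 3.09 ± 0.985 to 1.27 ± 0.343 FPKM. No member that was called had risen, so no profile was matched for a rise.

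The share of tested genes called in either direction was 33.3% to 53.8% in 7 lists of genes around the receptors, against 46.5% of all genes. Other receptor tyrosine kinases, from a list of 48, moved in both directions. Of the 16 tested, 4 were higher and 2 lower (5 and 1 with the length trend removed, 6 and 2 without the 2 libraries that stood apart), with a median of 0.08. The higher count was 1 after rescaling to TPM and without control replicate 2 or 6p replicate 3, and 2 without 6p replicate 2, and the lower count was 1 when control replicate 1 or 2 or 6p replicate 1 or 3 was left out. TIE1, an endothelial receptor, rose from 0.336 ± 0.0539 to 1.08 ± 0.239 FPKM, STYK1 from 0.945 ± 0.0809 to 1.42 ± 0.202, a call lost under 4 of 20 alternatives, among them rescaling to TPM (adjusted p = 0.123) and leaving out control replicate 2 (0.0506) or 6p replicate 3 (0.0614). LMTK2, a membrane-anchored kinase, fell from 8.40 ± 1.70 to 4.60 ± 1.02 FPKM. The defining endothelial markers PECAM1, VWF and CDH5 were at most 0.0407 FPKM in any library.

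Of 20 tested genes from a ligand list of 36, 7 were higher and 3 lower, with a median of 0.10. Counts were 9 and 3 with the length trend removed, and 9 and 5 without the 2 libraries that stood apart. The list covers ligands of receptors beyond the members and relatives of such ligands. Higher were HBEGF, MST1, PDGFA, PDGFB, VEGFA, VEGFB and VEGFC, and lower were NRG1, FGF1 and FGF5. HBEGF, an EGFR ligand, rose from 6.03 ± 0.396 to 11.3 ± 0.100 FPKM (log2 fold change 0.81 ± 0.07, adjusted p = 0.000149), against the direction of its receptor. VEGFA, the main angiogenic factor, rose from 8.43 ± 0.367 to 36.2 ± 2.30 FPKM (1.98 ± 0.08, adjusted p = 4.52e-06), and FGF5, a fibroblast growth factor, fell from 11.3 ± 1.78 to 4.70 ± 0.151 FPKM (-1.09 ± 0.11, adjusted p = 0.000241). Chosen after their values were seen, further ligands were NRG1, which binds ERBB3 and fell from 1.43 ± 0.143 to 0.507 ± 0.0209 FPKM, and GAS6, the AXL ligand, at 18.9 ± 0.503 and 21.1 ± 0.770 FPKM (adjusted p = 0.103). TGFA, another EGFR ligand, was 5.31 ± 0.428 and 6.22 ± 0.191 FPKM (adjusted p = 0.0752, and 0.0101 with the length trend removed).

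In the list of IGF binding proteins, which hold IGFs outside the cell, and of IGF2R, which clears IGF2, 2 of 5 tested genes were higher and 0 lower in limma, where 0 were lower also at an unadjusted p under 0.05 or with voom. Removing the length trend gave 3 higher genes, and without the 2 libraries that stood apart 4. IGFBP4 rose from 8.30 ± 0.425 to 11.9 ± 0.845 FPKM and IGFBP6 from 13.2 ± 2.33 to 21.7 ± 4.05. The IGFBP6 change of 0.67 ± 0.15 became 0.38 with the length trend removed (adjusted p = 0.00376).

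Docking and adaptor proteins, which link receptors to RAS and PI3-kinase, were split: 6 of 22 tested were higher and 4 lower (6 and 4 with the length trend removed, 6 and 6 without the 2 libraries that stood apart), with a median of -0.08. The lower count was 2 without control replicate 2. SHC2, an SHC-family adaptor, rose from 0.569 ± 0.0757 to 2.95 ± 0.266 FPKM and DOK4, a docking protein, from 1.63 ± 0.250 to 4.04 ± 0.356. DOK3, of the same family, fell from 2.73 ± 0.415 to 0.554 ± 0.162 FPKM. GRB2, the common adaptor to SOS and named after its values were seen, fell from 44.3 ± 1.39 to 36.9 ± 1.62 FPKM (-0.26 ± 0.07, adjusted p = 0.0171, called under 17 of 21 alternatives).

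Of the PI3-kinase, AKT and mTOR genes downstream of IRS1, 11 of 31 tested were lower and 2 higher, with a median of -0.25. Removing the length trend gave 13 lower and 5 higher genes, and the median was -0.17. The lower count was 5 without control replicate 1 or 2 and 17 without the 2 libraries that stood apart, where 5 were higher. The higher count was 1 without control replicate 1, control replicate 2 or 6p replicate 3, and 4 without 6p replicate 1. The AKT phosphatases PHLPP1 and PHLPP2 fell from 2.55 ± 0.466 to 1.10 ± 0.354 and from 3.83 ± 0.545 to 2.05 ± 0.325 FPKM. MLST8, a subunit of both mTOR complexes, rose from 17.9 ± 1.37 to 24.5 ± 0.791 FPKM. The PI3-kinase subunits PIK3CA and PIK3R1 and the kinase AKT2, named after their values were seen, had log2 fold changes of -0.42, -0.52 and -0.59, with adjusted p of 0.0366, 0.0140 and 0.00724 in limma, and were called under 15 of 21, 18 of 20 and 21 of 21 alternatives.

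Genes that curb or turn over receptors showed no common direction, with 4 of 30 higher and 6 lower (8 and 4 with the length trend removed, 6 and 11 without the 2 libraries that stood apart). The lower count was 2 without control replicate 1 or 2 and 11 without control replicate 3, and the higher count was 2 without control replicate 2. RNF41, a ubiquitin ligase known for degrading ERBB3, rose from 7.67 ± 0.621 to 12.6 ± 0.745 FPKM, and SOCS2 from 1.01 ± 0.0661 to 1.80 ± 0.0576. NEDD4, a ubiquitin ligase, fell from 10.8 ± 1.81 to 6.52 ± 0.302 FPKM. Of the FoxO-responsive genes, a set that PI3-kinase signalling is known to hold down in many tissues, 3 of 13 were higher and 4 lower, as many as with the length trend removed. There were 3 higher and 6 lower genes without the 2 libraries that stood apart, and 2 were lower without control replicate 1 or 2. GADD45A, a stress gene with several other inducers, rose from 46.7 ± 4.60 to 109 ± 12.9 FPKM and CCNG2 from 6.00 ± 0.113 to 8.06 ± 0.291. KLF6 fell from 23.3 ± 1.51 to 12.2 ± 1.13 FPKM.

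**Figure D5:**
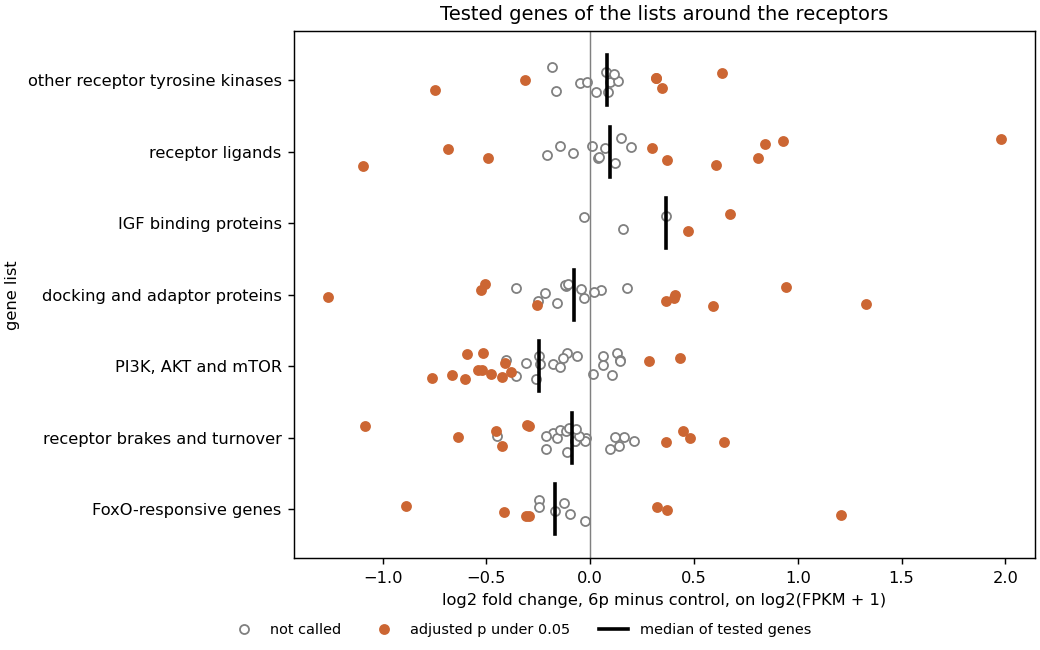
Log2 fold change of 6p against control (horizontal axis) for every tested gene of 7 lists around the receptors (vertical axis), filled where adjusted p was under 0.05, with each list's median as a black bar. Most lists have called genes on both sides of 0, and the PI3K, AKT and mTOR list has 11 called genes below 0 and 2 above.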

How the data were processed

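The authors deposited 1 table of FPKM values for 16070 genes, with 1 column for each of the 6 libraries, all of which were used. Per the labels' protocols, RNA was extracted with TRIzol and made into stranded TruSeq mRNA libraries. Trimmomatic, HISAT2, HTSeq, Cufflinks and GRCh38 stand in the submitters' processing notes, and the sources used here give no versions, roles, annotation or row filters. FPKM corrects for length only where libraries depend on length alike, which these did not.

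Genes averaging 0.5 FPKM or more over the libraries entered limma 3.58.1 (R 4.3.3) on log2(FPKM + 1) (eBayes with trend and robust, two-sided, Benjamini-Hochberg over 11745 genes, threshold 0.05). Fold changes carry the moderated SE or its 95% interval. Ratios were compared by exact permutation. Library totals, gene lengths and fragments were solved from the FPKM steps with Python 3.11.15: 100% of tested genes came out whole in every library, within 0.001. The length trend was removed by loess (span 0.5) of each library's distance from the gene means over all 6 libraries on log2 length. Any difference between the groups that runs with length was thus removed too. Coordinates are from GENCODE release 29.

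All 10 members are described. Up to 3 called genes per list with the smallest adjusted p were named, with the 3 profiles nearest to the called member that fell most. The members and lists were chosen with earlier results of these data known. Alternatives were 2 pseudocounts, 3 filters, 4 scalings, plain eBayes, a block for the replicate number with and without the length trend, the length trend removed, leaving out each library or both that stood apart, and limma voom. Applying them to the lists and their named genes was chosen after seeing the data.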

Additional observations from a re-analysis of the deposited data

How the results depend on the processing

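The number of changed genes was 5457, and leaving out 1 library moved it between 3517 (without control replicate 2) and 6084, lower genes between 1793 and 3378. Members called lower were fewest, at 1, without control replicate 1 or 2, where 2007 and 1793 of all genes were lower. The highest count was 5, without control replicate 3 (3378 of all genes lower) and without the 2 libraries that stood apart (4187). Members called higher were 1 with the length trend removed, with or without the replicate block. Rescaling to TPM moved the median of all genes by -0.17 and left 1526 genes higher.

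Same-numbered libraries did not deviate together (r over genes of -0.57, 0.33 and -0.42 for pairs 1 to 3), so the numbers pair nothing. The replicate block took lower genes from 2951 to 1920, and EGFR (adjusted p = 0.0281) and IRS1 (0.0462) stayed called while AXL did not (0.125). The STYK1 log2 fold change was no longer called under it either (0.0611), and of the other receptor tyrosine kinases 1 was then higher in place of 4.

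Uncalled members changed sign under some settings. ERBB2 was 0.046 after median recentring, 0.0090 with upper-quartile scaling, 0.065 with quantile normalization, 0.12 with the length trend removed (block or not), 0.14 without the 2 libraries that stood apart, and -0.12 to 0.17 when 1 library was left out. ERBB3 was 0.016 after recentring, 0.074 with the length trend removed (block or not) and -0.11 to 0.0069 when 1 library was left out. FGFR1 was 0.020 with the length trend removed (block or not). INSR was -0.10 after rescaling to TPM and -0.067 to 0.11 when 1 library was left out. The cause was not tested. The 3 ratios kept their direction under every alternative run, with p of 0.25 under the replicate block. Depth limits ERBB3 and IRS2 most of the 10 members.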
